A study of Oryza sativa with 6 samples.

Results

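Wide H3K27me3 domains that carried none of the 5 other histone marks of the series were examined in rice seedlings. They were selected on 2 measured values of the deposited peak lists. An H3K27me3 peak had to be at least 2500 bp wide, and it had to overlap no peak of H3K4ac, H3K9ac, H3K27ac, H3K9me1 or H3K9me3 by 1 bp or more. This left 1899 domains, or 14.7% of the 12959 H3K27me3 peaks, out of 82347 peaks in all 6 lists. Chromatin for every mark came from 2-week-old seedlings of the rice (Oryza sativa) cultivar Nipponbare raised in a greenhouse, with no treatment named, and the source is given as leaves although the tissue entry reads Seedling. Each of the 6 commercial antibodies gave 1 library, so the groups differ in the antibody alone as far as the labels go. The lists hold chromatin of leaves or of whole seedlings, so a domain can combine the states of several cell types. With 1 library per mark there is no replicate spread, so no test was made and no p-value is given. Shares carry 95% Wilson intervals that cover counting error only, and neighboring domains are not independent of each other. The depth of the libraries is unknown, and so a mark that is not listed at a place can still be present there below the limit of peak calling. The study concerned bidirectional promoters, but the lists name neither genes nor a genome build, so positions are given as listed, no gene or sequence is assigned to a domain, and the tissue could not be checked against marker genes.

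H3K27me3 is the histone mark written by the Polycomb repressive complex PRC2. In plants it is typically laid over whole genes that are silent in a given tissue, many of them developmental regulators that are used in another organ or at another stage, and it can be removed when the gene is needed. It is therefore regarded as a reversible form of repression in euchromatin. H3K4ac, H3K9ac and H3K27ac are found at the promoters and first exons of active genes, and acetylation and trimethylation of the same H3K27 residue cannot occur together on 1 histone tail. Methylation of H3K9 differs by its degree in plants. H3K9me1 is found with H3K9me2 in heterochromatin and at silenced transposons, whereas H3K9me3 is largely a mark of euchromatin and genes. The term H3K9 methylation is used here for a peak of either H3K9me1 or H3K9me3 and stands for no single chromatin type. A wide H3K27me3 domain without any of these is thus 1 form in which H3K27me3 is listed without the other 5 marks. Narrower H3K27me3 peaks with no other mark were more numerous, at 6589. The study also used earlier H3K4me2, H3K4me3, H3K36me3 and H4K12ac data, which are not in these lists, so those marks can be present on a domain.

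Of the 3260 H3K27me3 peaks of 2500 bp or more, 58.3% had no other mark (56.6 to 59.9%). Among the peaks under 2500 bp the share was 67.9%. Both the width and the overlap belong to the selection, so these shares describe it and support nothing. The share with no other mark was 62.5% from 2500 to under 3000 bp, 59.1% from 4000 to under 5000 bp, 49.3% from 7000 to under 8000 bp and 37.3% (25.3 to 51.0%) among the 51 peaks of 8000 bp or more. The share that would follow from length alone was not computed. The 1361 wide peaks that were left out touched acetylation in 93.4% of cases and H3K9 methylation in 13.1%. Of them, 70.0% overlapped H3K9ac, 62.7% H3K4ac, 16.5% H3K27ac, 7.27% H3K9me3 and 6.98% H3K9me1. An H3K9ac peak was the sole reason for leaving out 295 of these peaks, and an H3K4ac peak for 220.

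**Figure D1:**
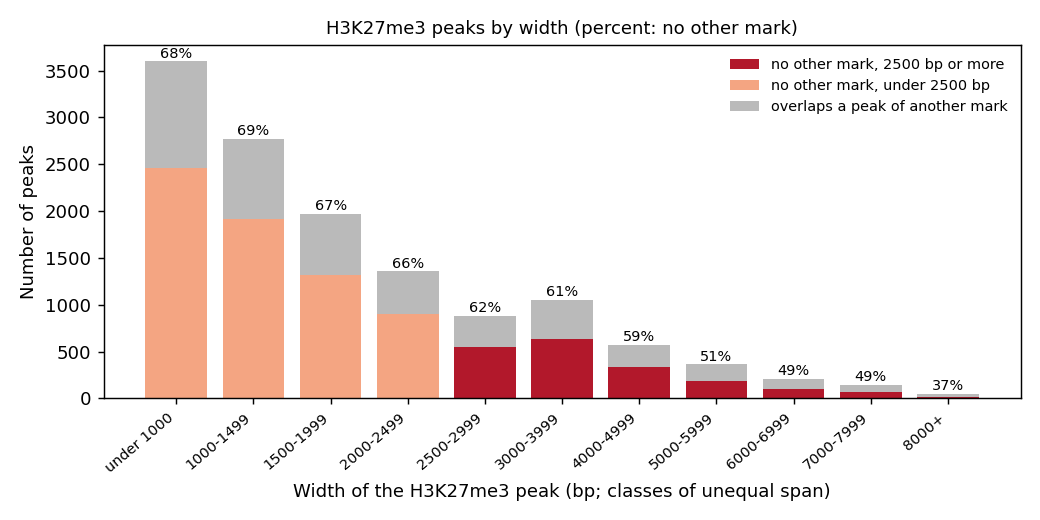
Number of H3K27me3 peaks (y axis) in classes of width in bp (x axis; the classes span unequal ranges), split into peaks that overlap another mark (grey) and peaks with no other mark under 2500 bp (light) or of 2500 bp or more (dark). The percentage above each bar is the share with no other mark, which went from 68.4% in the narrowest class to 37.3% in the widest.

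The domains covered 7.53 Mb, which is 29.1% of the length covered by H3K27me3 peaks and 2.02% of the chromosomes up to their last listed peak. Their width had a median of 3512 bp, with quartiles of 2914 and 4651 bp and a maximum of 8932 bp. Most domains were therefore close to the lower limit, and 375 (19.7%) reached 5000 bp. The peak caller's score, which ranks the evidence for a peak within its own library, had a median of 397 and ranged from 50.0 to 1446. Over all H3K27me3 peaks the median score was 219. In the ranking of the H3K27me3 list by score, the median domain was at percentile 72.1, with quartiles at 48.5 and 87.0. The score comes from the same peaks as the width, so this is also only a description. The wide peaks with another mark had a median score of 416 and a median width of 3832 bp, and were thus similar in both values.

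The score differed little among domains under 5000 bp and was lower in the widest ones. The median score was 411 for the domains under 3000 bp, 441 from 3000 to under 4000 bp, 446 from 4000 to under 5000 bp, 399 from 5000 to under 6000 bp, 240 from 6000 to under 7000 bp and 182 from 7000 to under 8000 bp. The 19 domains of 8000 bp or more had scores between 51.2 and 138, with a median of 73.7, and so all of them were below the median score of the H3K27me3 list. The 72 domains with a score of at least 1000 were 2500 to 4731 bp wide. Across the 1899 domains Spearman's rho of width with score was -0.15, while it was 0.64 across the 6589 narrow H3K27me3 peaks with no other mark. Both values come from the peaks of 1 library and are given without a test.

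**Figure D2:**
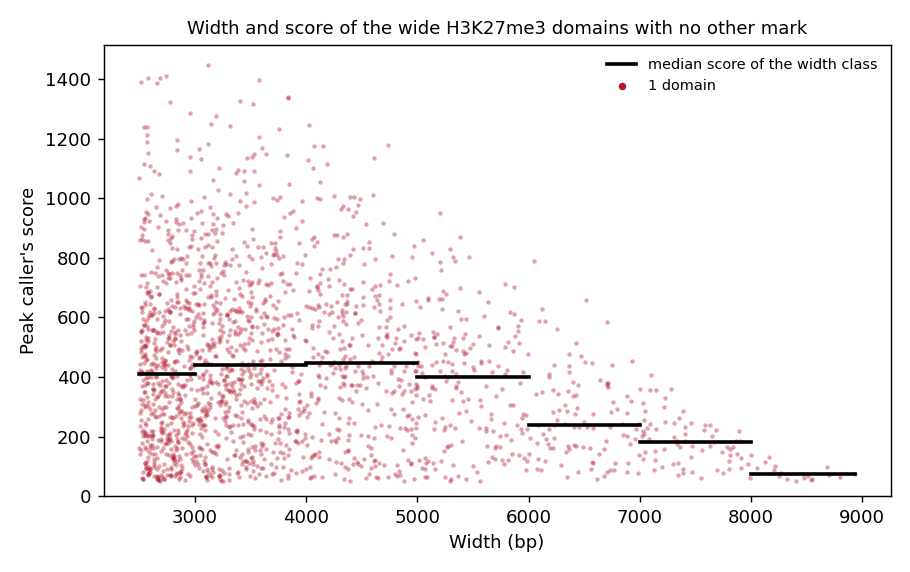
Width in bp (x axis) and peak caller's score (y axis) of each of the 1899 domains (points), with the median score of each width class (black lines). Scores of 1000 or more are found only among domains under 5000 bp, while scores up to 952 occur from 5000 to under 6000 bp. The 19 domains of 8000 bp or more have scores of at most 138.

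The selection is a limit in a continuous range of widths. The narrowest domains inside it were 2500 bp long on chromosome 1 from 39328038 to 39330537, with a score of 162, and on chromosome 8 from 27837245 to 27839744, with a score of 1068. The widest peaks with no other mark outside it were 2499 bp on chromosome 2 from 28257459 to 28259957, with a score of 688, and 2498 bp on chromosome 7 from 3300093 to 3302590, with a score of 167. Scores were thus high and low on both sides of the limit.

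The widest domain lay on chromosome 7 from 5402547 to 5411478. It was 8932 bp wide, had a score of 74.5, and was 14159 bp from the nearest acetylation peak and 12026 bp from the next H3K27me3 peak. The next in width lay on chromosome 8, from 4643198 to 4651997 (8800 bp, score 65.9) and from 9554671 to 9563371 (8701 bp, score 71.5). The former was 3292 bp from an H3K9me3 peak and the latter 1397 bp from an H3K9me1 peak, so that H3K9 methylation was listed near both without touching them. Another domain of chromosome 8, from 9379296 to 9387977, was 8682 bp wide with a score of 97.3 and was 2886 bp from H3K9me3. On chromosome 1, the domain from 8766376 to 8774891 was 8516 bp wide with a score of 68.5. Chromosome 9 held 3 of the 10 widest domains, with widths of 8546, 8543 and 8406 bp and scores of 59.1, 53.2 and 51.2. On chromosome 11 from 2578999 to 2587470, a domain of 8472 bp with a score of 60.1 ended 134 bp from an H3K4ac peak. Farther along chromosome 11, from 18171177 to 18179641, a domain of 8465 bp with a score of 73.7 lay in a stretch of 109598 bp without acetylation. The distance to acetylation among the 10 widest thus went from 134 to 15566 bp.

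The highest score, 1446, belonged to a domain of 3120 bp on chromosome 3 from 3388061 to 3391180, which was 7209 bp from the nearest acetylation peak (H3K9ac) and 68847 bp from H3K9 methylation. The next was a domain of 2741 bp on chromosome 5 from 27284035 to 27286775, with a score of 1411 and an H3K4ac peak 70 bp away. Strong H3K27me3 and a listed active mark were thus next to each other there. A domain of 2689 bp on chromosome 6 from 13856140 to 13858828 (score 1405) had its nearest acetylation peak at 17253 bp and an H3K9me3 peak at 1383 bp. On chromosome 9 from 1710509 to 1713022, a domain of 2514 bp with a score of 1392 stood apart from every mark, with the nearest acetylation peak at 35539 bp and the next H3K27me3 peak at 51314 bp. The scores of the 10 highest went from 1327 to 1446. These domains were 2514 to 3838 bp wide, and 4 of them were within 1000 bp of acetylation.

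Acetylation was listed near most domains although it touched none of them by the selection. The nearest acetylation peak was a median of 4295 bp away (quartiles 1842 and 8974 bp), and 1485 domains (78.2%, 76.3 to 80.0%) had one within 10 kb. Over all H3K27me3 peaks, overlapping ones included, the share was 88.0%, and for the narrow peaks with no other mark it was 83.4% (82.5 to 84.3%). Within 1000 bp of acetylation were 270 domains (14.2%), while 120 domains (6.32%) were more than 20 kb away and 7 more than 50 kb. Domains thus ranged from direct neighbors of acetylated chromatin to isolated regions. The median distance was 5257 bp to H3K4ac and 5227 bp to H3K9ac, but 16068 bp to H3K27ac, for which 9309 peaks were listed compared with 25425 for H3K4ac. The acetylation peak nearest to the domain was an H3K4ac peak for 70.0% of the domains, and for 71.5% of the narrow peaks with no other mark. H3K4ac peaks had a median width of 1180 bp and H3K9ac peaks one of 888 bp. The part of peak width in this share was not tested. Acetylation within 10 kb was found on both sides for 608 domains, on 1 side for 877 and on neither side for 414. When the other marks were restricted to scores from 100 upward, 2791 domains were found and the median distance to acetylation was 7814 bp.

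The coverage of each mark was then followed outward from the 2 edges of each domain. At 250 bp, 1.82% of the edges were covered by H3K4ac and 0.737% by H3K9ac. These shares were 6.45% and 5.11% at 1000 bp, 8.01% and 6.37% at 5000 bp, and 9.06% and 7.30% at 12500 bp, as against 8.87% and 7.00% of the chromosomes as a whole. Both marks were below these chromosome values at each distance measured up to 11000 bp. At greater distances they lay on both sides of them, with 7.59% and 6.25% at 21000 bp and 9.93% and 7.64% at 27000 bp. The selection leaves no acetylation at the edge itself, because it removed every peak that reached over an edge. Low coverage is thus partly built in within about the width of a peak, a median of 1180 bp for H3K4ac and 888 bp for H3K9ac. The narrow peaks with no other mark, under the same overlap rule, had 1.69% and 1.07% at 250 bp. At 1000 bp they had 6.37% and 5.58%. H3K27ac covered 1.32% of the edges at 1000 bp and 2.79% at 12500 bp, with 2.82% of the chromosomes as a whole. The acetylation peaks nearest to the domains were ordinary members of their lists. Their median score rank was at percentile 47.9 for H3K4ac, 46.3 for H3K9ac and 47.5 for H3K27ac, and for the peaks nearest to narrow H3K27me3 peaks with no other mark it was 47.9, 46.1 and 48.4.

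**Figure D3:**
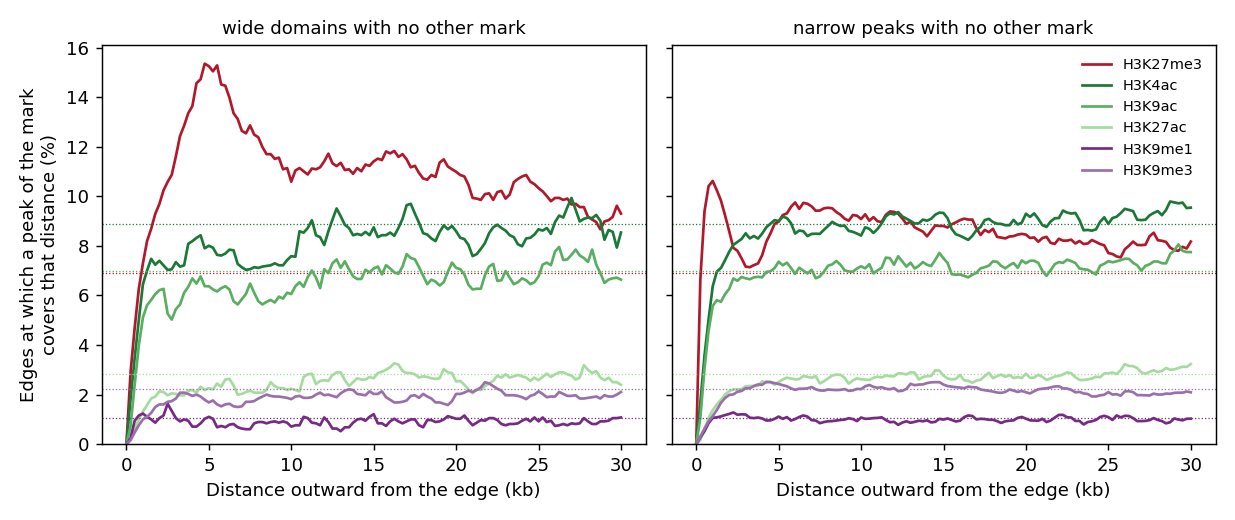
Share of edges (y axis, %) at which a peak of each of the 6 marks covers the base at a given distance outward from the edge (x axis, kb), for the 1899 wide domains (left) and the 6589 narrow H3K27me3 peaks with no other mark (right). Dotted lines give the share of the chromosomes covered by each mark, and those of H3K9ac and H3K27me3 nearly coincide. Coverage by H3K27me3 outside the wide domains is highest, 15.4%, at 4750 bp.

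H3K9 methylation was farther away, but its lists were also shorter, with 5002 H3K9me1 and 2959 H3K9me3 peaks. The nearest peak of either lay a median of 19325 bp from the domain. That median was 16382 bp for the narrow peaks with no other mark and 15801 bp over all H3K27me3 peaks, overlapping ones included. The part of list length in the distance was not tested. An H3K9 methylation peak lay within 10 kb of 572 domains (30.1%, 28.1 to 32.2%). This share was 37.5% over all H3K27me3 peaks, overlapping ones included, and 35.0% (33.9 to 36.2%) for the narrow peaks with no other mark. The selection removed overlapping peaks from the domains, so a share below 37.5% is partly built in. H3K9me1 was within 10 kb of 22.7% of the domains and H3K9me3 within 10 kb of 12.6%. More than 50 kb separated 296 domains (15.6%) from any H3K9 methylation. The 2 lists consist largely of low scores, with medians of 67.1 and 60.9, and these shares depend on them. Under the same restriction of the other marks to scores from 100 upward, 3.15% of the domains had H3K9 methylation within 10 kb.

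The nearest peak of any list was an acetylation peak for 840 domains (44.2%), another H3K27me3 peak for 812 (42.8%) and an H3K9 methylation peak for 249 (13.1%), with ties counted for each. Of the 1899 domains, 1337 (70.4%, 68.3 to 72.4%) had another H3K27me3 peak within 10 kb. The background share over all H3K27me3 peaks was 68.1%, so the domains were near the value of the list. The median distance to the next H3K27me3 peak was 5158 bp. The nearest H3K27me3 peak was itself one of the domains for 20.8% of them (19.0 to 22.7%), while the domains make up 14.7% of the list. For wide peaks with another mark it was one of the domains in 21.5% (19.4 to 23.7%), and for narrow peaks with no other mark in 12.9% (12.1 to 13.7%). Wide peaks thus had a wide peak without another mark as their nearest neighbor at similar rates, whether or not they carried another mark. Going outward, a further H3K27me3 peak was met before any acetylation on both sides of 432 domains and on 1 side of 913. Acetylation came first on both sides of 554 domains.

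H3K27me3 peaks were sparse right beside the domains and most frequent some distance away. At 250 bp outside the edge, 2.90% of the edges were covered by another H3K27me3 peak, compared with 15.4% at 4750 bp, 10.6% at 10000 bp and 9.30% at 30000 bp. H3K27me3 covered 6.92% of the chromosomes. The highest coverage outside wide peaks with another mark was 15.9%, also at 4750 bp, and outside the narrow peaks with no other mark it was 10.6% at 1000 bp. The wide peaks therefore shared this profile irrespective of the other marks. The profile changed with the score of the domain, a division made after the values had been seen. For the 449 domains with a score under 200 the highest coverage was 23.3% at 2000 bp, for the 950 with a score from 200 to under 600 it was 14.5% at 5500 bp, and for the 500 with a score of at least 600 the coverage was 8.30% at 3750 bp and 11.7% at 5500 bp. From there outward the last class had no clear maximum, and its highest value of 11.9% at 19250 bp was close to that at 5500 bp. Another H3K27me3 peak lay within 1000 bp of 146 of the domains under 200 (32.5%) and of 13 of the domains of at least 600 (2.60%). The median distance to the next H3K27me3 peak was 2297 bp for the former and 8386 bp for the latter, although their median widths were 3774 and 3384 bp. Narrow peaks with no other mark had distances of 2846 bp under a score of 200 and 11660 bp at 600 or more. Close neighbors were thus more frequent beside low-scoring domains, and few were listed in the first kb beside high-scoring ones. Whether a longer stretch of the mark was listed as several peaks cannot be read from the lists, and the part of the peak caller in this spacing was not tested.

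**Figure D4:**
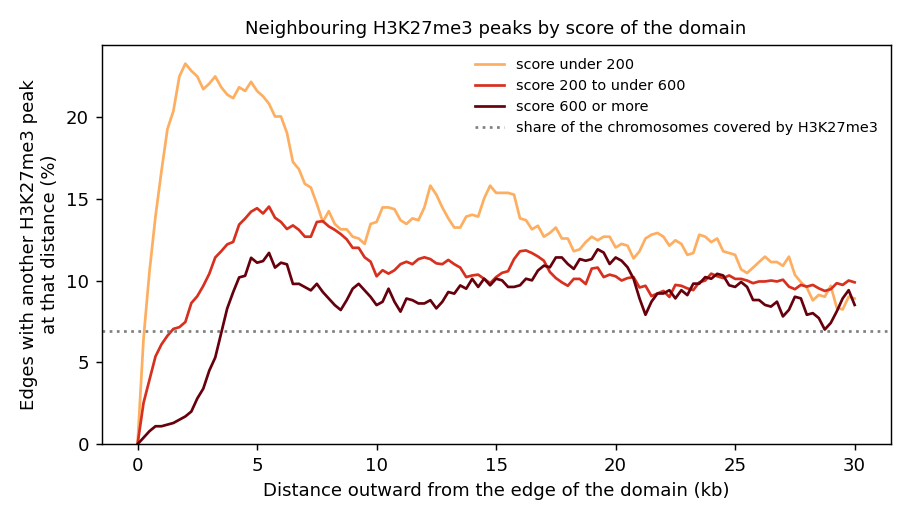
Share of edges (y axis, %) with another H3K27me3 peak at a given distance outward from the edge of the domain (x axis, kb), for domains with a score under 200 (449), from 200 to under 600 (950) and of 600 or more (500). The dotted line is the share of the chromosomes covered by H3K27me3, 6.92%, and the curve of the high-scoring domains stays below it for the first 3 kb.

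The stretch of chromosome between the acetylation peaks on either side of a domain had a median length of 23683 bp over the domains, and 19800 bp over the narrow peaks with no other mark. It includes the peak itself, with median widths of 3512 and 1209 bp that the selection set apart, so part of this difference is built in. The domains lay in 1635 such stretches, since some hold several domains. Of them 1429 held 1 domain, 167 held 2 and 39 held 3 or more. H3K27me3 peaks covered a median of 23.3% of the stretch (quartiles 16.4 and 33.0%). At least 50% was covered in 112 stretches, but in just 5 of the 911 stretches of 20 kb or more. In 817 stretches the domain was the sole H3K27me3 peak, and 523 stretches (32.0%) also held an H3K9me1 or H3K9me3 peak. H3K27me3 peaks thus filled the smaller part of most of these stretches. With that restriction of the other marks, the median length was 39873 bp.

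The longest of these stretches lay on chromosome 11 from 11025354 to 11200944. It was 175591 bp long and held 3 domains among 7 H3K27me3 peaks that covered 12.9% of it. The next, on chromosome 12 from 17196218 to 17357964, was 161747 bp long with 3 domains and 10.3% covered. A stretch of 146030 bp on chromosome 11, from 19184768 to 19330797, had 9 domains among 13 H3K27me3 peaks, the highest number of any stretch, and 29.6% of it was covered. It held no H3K9me1 or H3K9me3 peak. The 5 domains farthest from acetylation all belonged to the first and the third of these stretches. The farthest, of 3613 bp with a score of 176, lay 82573 bp from acetylation on chromosome 11 from 11114759 to 11118371. Its neighbor from 11093538 to 11099896 was 6359 bp wide, had a score of 436 and was 68184 bp away. The other two of the 5 longest stretches were 131061 bp with 1 domain on chromosome 12 from 19293440 to 19424500, and 124111 bp with 3 domains on chromosome 5 from 18193587 to 18317697. Their H3K27me3 peaks covered 4.06% and 16.1%.

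When neighboring domains with gaps of at most 50 kb were joined, 995 domains (52.4%) fell into 375 runs. Of these, 227 runs had 2 domains, 123 had 3 or 4 and 25 had 5 or more. The median gap between neighboring domains was 105273 bp, and 212 of the 1887 gaps (11.2%) were 10 kb or less. No acetylation peak lay between the first and the last domain in 107 runs. The number of runs was 630 with the other marks restricted to scores from 100 upward, also 630 with a minimum width of 2000 bp, 239 with 3000 bp and 32 with 5000 bp.

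The run with the most domains was on chromosome 11 from 19186236 to 19308415, in the stretch named above. Its 9 domains spanned 122180 bp and made up 29.4% of it, and no peak of the other marks was listed between them. In order along the chromosome, the widths were 4827, 4486, 3694, 3416, 3799, 2738, 2581, 7030 and 3406 bp. The scores in the same order were 562, 372, 556, 378, 130, 142, 87.4, 125 and 551. The 4 low-scoring domains were thus next to each other, with higher scores on both sides of them. The gaps between the domains went from 4483 to 21383 bp. The second run, of 8 domains in 174458 bp, was on chromosome 10 from 13624383 to 13798840, and it enclosed 1 H3K4ac, 2 H3K9ac, 2 H3K9me1 peaks and 1 H3K9me3 peak. A further 2 runs, of 7 domains each, were on chromosome 8, from 5176026 to 5285042 and from 4211370 to 4306366, where the domains made up 32.2% and 31.1% of the span. Another run of 7 on chromosome 7, from 20789705 to 20928037, enclosed 5 H3K4ac and 6 H3K9ac peaks. Runs of domains were thus listed both with and without acetylation in between.

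All 12 chromosomes held domains, with 5.09 per Mb as a whole. The lowest density was 3.94 per Mb on chromosome 5 (118 domains) and 4.20 per Mb on chromosome 4 (149), and the highest was 6.20 per Mb on chromosome 11 (180) and 5.91 per Mb on chromosome 9 (136). As a share of the H3K27me3 peaks of the chromosome, the domains went from 12.6% on chromosome 5 (10.7 to 14.9%) to 17.2% on chromosome 9 (14.7 to 20.0%). These intervals overlap slightly. Chromosome 11 also had the highest density of H3K27me3 peaks, 40.5 per Mb. Its domains and those of chromosome 12 were farther from acetylation than elsewhere, with medians of 5724 and 5790 bp, and these are also the chromosomes with the lowest density of H3K4ac peaks, 57.3 and 56.5 per Mb. The shortest median distance was 3175 bp on chromosome 3, where H3K4ac had its highest density of 83.3 peaks per Mb. The part of acetylation density in the distance was not tested.

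Over all chromosomes, domains were least frequent toward the middle. When each chromosome was divided into 10 segments of equal length, the density was 3.03 domains per Mb in segment 5 and 3.64 in segment 4, but 6.75 in segment 7 and 6.27 in segment 10. The domains made up 11.8% of the H3K27me3 peaks in segment 5 (9.90 to 14.0%) and 17.1% in segment 7 (15.2 to 19.1%). H3K4ac followed a similar course, with 50.3 peaks per Mb in segment 5 and 87.9 in segment 10. H3K9me3 showed no such course, with 8.15 peaks per Mb in segment 5, 8.44 in segment 7, 9.08 in segment 8 and lower values of 6.67 and 5.87 in the end segments. Over the 120 segments of the 12 chromosomes the density ranged from 0.704 to 14.5 domains per Mb with a median of 5.29. The highest value belonged to segment 7 of chromosome 11, which held 42 of the 252 domains of the pooled segment 7. Single chromosomes departed from the pooled course, and on chromosome 9 the lowest density was in segment 2, at 0.869 per Mb, with 6.95 in segment 5. Over 368 whole bins of 1 Mb, the number of domains had a Spearman's rho of 0.47 with the other H3K27me3 peaks, 0.20 with H3K4ac and -0.07 with H3K9me3. These values describe bins that share libraries and regional gene content, and they have no test. No domain lay in 20 bins, where the median number of H3K27me3 peaks was 13.5, compared with 36 in all bins.

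**Figure D5:**
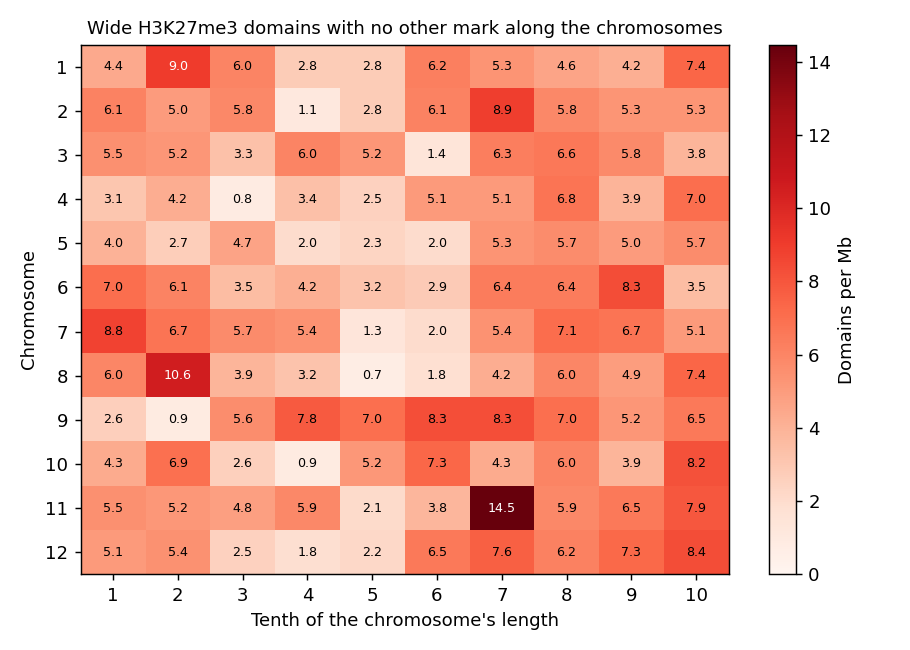
Domains per Mb (color and printed value) in each of 10 segments of equal length (x axis, first to last) of the 12 chromosomes (y axis); the end of the last listed peak stands for the end of the chromosome. Segment 7 of chromosome 11 has the highest value, 14.5, and 9 of the 120 segments are below 2.

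The bins of 1 Mb with the most domains, 17 each, lay side by side on chromosome 11. A region from 17 to 20 Mb, which holds them and a bin with 13 domains, was chosen after its values had been seen. It held 47 domains, or 15.7 per Mb, which were 27.5% of its 171 H3K27me3 peaks. Their median width of 3416 bp was close to that of all domains, but the median score was 178 and the median distance to acetylation 7934 bp. The region had 46.3 H3K4ac, 50.3 H3K9ac and 15.3 H3K27ac peaks per Mb, each below the 68.1, 71.5 and 24.9 per Mb of the chromosomes as a whole. H3K9me1 had 9.33 and H3K9me3 9.67 peaks per Mb there, compared with 13.4 and 7.93. The density of H3K4ac was 57.3 per Mb on chromosome 11 as a whole. Within the region the acetylation peaks were unevenly spread. The bin from 18000001 to 19000000 held 33 H3K4ac and 32 H3K9ac peaks, but the bin from 19000001 to 20000000 held 60 and 66, close to the medians of 66.5 and 70.0 over all bins. Both bins held 17 domains. In the second bin, however, 9 of the domains lay in the stretch of 146030 bp without acetylation named above. The acetylation peaks of that bin were thus listed outside this stretch, and the counts per bin do not describe the surroundings of single domains. The 1 Mb bins with the next highest numbers were on chromosome 9 from 12000001 to 13000000 (15 domains) and on chromosome 1 from 6000001 to 7000000 (14 domains).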

How the data were processed

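ChIP-seq libraries of 6 histone modifications, 1 for each mark, were taken as deposited peak lists. The submitters' processing notes name Bowtie as aligner, and the peak names give MACS 1.4. The study took its gene pairs from release 7 of the TIGR annotation of japonica rice and mapped RNA-seq reads to the same release, but which build the peak lists use is not stated for them. Versions beyond this, settings and a control library are not given in the sources used here. The deposited score of each peak is the authors' peak caller's value; its lowest value was 50.0, and it was ranked within the H3K27me3 list. This caller sets each peak against a local read rate taken over several kb, which can affect the width, score and spacing of wide peaks, and this was not tested. Depth is unknown, so the lengths of the lists do not compare the amounts of the marks.

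Distances were counted from edge to edge. Starts are 1-based. Peaks of 1 list never overlapped. Intervals of shares are 95% Wilson intervals, and intervals of medians come from order statistics. Functions were tested on lists with planted regions. Regions were named by rule: the 10 widest, the 10 highest scores, the 5 farthest from acetylation, the 5 longest stretches and the 5 largest runs; the members not described singly are given by their range. Descriptions by score class and by single region were added after the values had been seen. Domains and rules were chosen with earlier results of these data known. The gene table at hand belongs to another assembly, so the planned assignment of genes was not made. Alternatives were other width limits, minimum scores, overlaps, distances and joining of peaks. Python 3.11.15, numpy 2.4.6, pandas 2.3.3, scipy 1.17.1 and matplotlib 3.10.9 were used.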

Additional observations from a re-analysis of the deposited data

How the results depend on the processing

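Of 101 values recomputed under alternatives, 62 stayed within their interval (within 1.5 times for counts and lengths) and 39 moved; the cause was not tested beyond what an alternative does by construction. A minimum width of 2000 bp gave a median width of 2944 bp and 630 runs, and 3000 bp gave 4099 bp and 239 runs. At 5000 bp there were 375 domains over 2.34 Mb, with a median width of 6072 bp, a median score of 246, H3K27me3 within 10 kb of 66.1%, acetylation within 10 kb of 75.2%, a distance to acetylation of 4699 bp, a stretch of 29001 bp and 32 runs. Counting other marks only from a score of 100 gave 11.4 Mb, a median width of 3640 bp, acetylation near 57.8%, H3K9 methylation near 3.15%, a distance of 7814 bp, a stretch of 39873 bp and 630 runs. H3K27me3 peaks of at least 100 had a median score of 430, with H3K27me3 near 58.5%. An overlap of 50% of the shorter peak gave a distance to acetylation of 4054 bp. With no other mark within 1000 bp, acetylation was near 74.2%, H3K9 methylation near 26.8%, the distance 5248 bp and the stretch 26287 bp. Joining H3K27me3 peaks closer than 200 bp left H3K27me3 near 67.7%, and closer than 1000 bp 63.6%, with a median width of 3597 bp. Within 5, 20 and 50 kb, H3K27me3 was near 49.0, 86.9 and 97.4% of the domains, acetylation near 55.5, 93.7 and 99.6%, and H3K9 methylation near 18.8, 51.9 and 84.4%. No paired analysis was possible because each mark has 1 library, and no replicate could be left out. The unknown depth limits every statement that a mark was not listed.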

Other observations

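Scores by width were also compared in the other lists, after the values had been seen. The widest peaks were 8978 bp for H3K27me3, 8168 bp for H3K9me3, 7992 bp for H3K9ac, 7292 bp for H3K9me1, 6732 bp for H3K4ac and 6702 bp for H3K27ac. The median H3K4ac score was 264 from 2000 to under 3000 bp, 306 from 3000 to under 5000 bp and 180 for the 20 peaks from 5000 to under 7000 bp. For H3K9ac it was 268, 253 and 180 in the same classes, the last with 9 peaks, and for H3K27ac 149, 149 and 113, the last with 13 peaks. In the H3K27me3 list as a whole it was 417, 469 and 338, and 141 for the 193 peaks of 7000 bp or more. From 5000 to under 7000 bp, the medians of H3K27me3, H3K4ac, H3K9ac and H3K27ac were all above those of their lists, 219, 158, 132 and 83.7. The H3K27me3 peaks of 7000 bp or more were below the median of their list, and no H3K4ac or H3K27ac peak was that wide. For H3K9me1 the median was 137, 174 and 79.0 in the same 3 classes, the last with 11 peaks, and 82.9 for 3 peaks of 7000 bp or more, with 67.1 over the list. The single H3K9ac peak of 7000 bp or more had a score of 59.5, also below the median of its list. The median H3K9me3 scores lay between 58.6 and 64.2 in every width class. The part of peak calling in this pattern was not tested.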
